A study of Canis lupus familiaris with 77 samples.

Results

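cfa-miR-199 and cfa-miR-214 are a pair of miRNAs known from fibroblasts and other mesenchymal cells, and they were followed here across 16 tissues of untreated male beagle dogs of the same age. They were taken by name, not by a cutoff on values, as 2 of the 650 miRNAs with at least 1 read. Earlier results of these data were known at that time. Small RNA libraries from 76 samples were used: bone marrow, brain, duodenum, heart, ileum, jejunum, kidney, liver, lung, pancreas, plasma, skeletal muscle (quadriceps), testis and thymus with 5 samples each, colon with 4 and sciatic nerve with 2. The dogs received no treatment, and organs were perfused with buffered saline before collection according to the study's methods. The study's text describes the sciatic nerve RNA in different ways, in its methods as a pool that was split and elsewhere as individual samples beside a pool, and by both accounts there were more such samples than the 2 analysed here. Whether these 2 libraries come from separate animals is not settled. All tissues were taken from the same few dogs, so samples of different tissues share animals. The labels carry no dog number, so these samples could not be paired, and the tests of a tissue against the others treat them as independent. The p-values therefore measure the spread between these samples only.

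miRNAs are short RNAs cut from hairpin precursors that guide repression of messenger RNAs, and either arm of a hairpin (5p or 3p) can give a mature product. miR-214 and one of the miR-199a hairpins are processed from a long noncoding transcript that runs opposite to the gene DNM3, a locus known for activity in mesenchyme during development. In adult organs both miRNAs have been studied mainly in fibroblasts, in hepatic stellate cells and in fibrosis. In the RefSeq gene table for dog, MIR199-2 and MIR214 are neighbouring entries inside DNM3, whereas MIR199-1 lies inside DNM2 and MIR199-3 inside DNM1. The cfa-miR-199 entry joins miR-199a-3p and miR-199b-3p, so its reads come from 3 hairpin genes and cannot be assigned to any of them. The cfa-miR-214 entry also carries the name of miR-3120-5p, a product of the opposite strand, and whether strand was used in counting is not given in the sources used here. The other products found were hsa-miR-199a-5p, hsa-miR-199b-5p and hsa-miR-214-5p. No messenger RNA was measured, so the fibroblast label could not be checked against fibroblast marker genes.

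Libraries held 157871 to 7896424 reads on miRNAs, and levels are given as RPM, the reads of a miRNA scaled to that total. Reads of cfa-miR-199 ranged from 75 to 23348 per library and reads of cfa-miR-214 from 1 to 833. cfa-miR-214 had 3 or fewer reads in 4 libraries and fewer than 10 in 11, so its low values are imprecise. In 7 libraries, chosen after the values were seen, miRNAs typical of the labelled tissue were far below or not leading as in other libraries of that tissue: skeletal muscle replicate 4, duodenum replicates 3 and 4, thymus replicates 2, 3 and 5 and testis replicate 3. The edgeR comparisons of both members in these 4 tissues with the others are given with and without them. Counts over a list of miRNAs and edgeR values of the 5p products are given with all libraries only.

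Both miRNAs were found in every one of the 76 libraries, and cfa-miR-199 had more reads than cfa-miR-214 in all 76. The median level of cfa-miR-199 exceeded 1000 RPM in 13 tissues. It was highest in testis at 5612 RPM and lowest in brain at 381 RPM, a 14.7-fold span. cfa-miR-214 was less abundant but more uneven, with medians from 367 RPM in sciatic nerve to 5.77 RPM in pancreas, a 63.5-fold span, and 9 tissues above 100 RPM. Because tissues are mixtures, fewer cells of a type and less miRNA per cell cannot be told apart in any of these values.

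**Figure D1:**
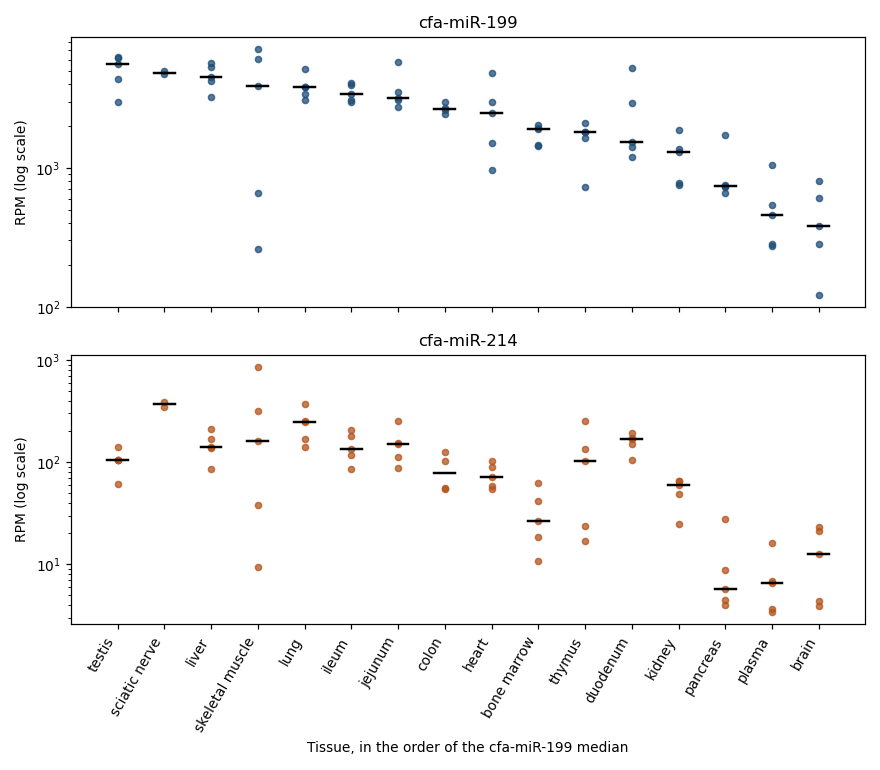
RPM on a log scale of cfa-miR-199 (top) and cfa-miR-214 (bottom) in each library (points) with the tissue median (bars), in the order of the cfa-miR-199 median. Brain, plasma and pancreas hold the 3 lowest medians of both miRNAs, and the 5 skeletal muscle libraries spread from 260 to 7108 RPM of cfa-miR-199.

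In descending order the cfa-miR-199 medians were 5612 RPM in testis, 4844 in sciatic nerve, 4535 in liver, 3899.6 in skeletal muscle, 3791 in lung, 3417 in ileum, 3160.4 in jejunum, 2663 in colon, 2468 in heart, 1894 in bone marrow, 1804 in thymus, 1536 in duodenum, 1295 in kidney, 739 in pancreas, 458 in plasma and 381 in brain. For cfa-miR-214 the order was sciatic nerve at 367 RPM, lung at 249, duodenum at 167, skeletal muscle at 161, jejunum at 152, liver at 142, ileum at 133, testis at 106, thymus at 103, colon at 78.7, heart at 71.6, kidney at 59.7, bone marrow at 26.4, brain at 12.7, plasma at 6.49 and pancreas at 5.77. None of the 30 pairs of neighbours in these orders differed beyond its spread by a two-sided exact permutation test on log2(RPM + 1), and none had an unadjusted p under 0.05. The same values set the order, so neighbours are close by construction. These p-values are a description and do not show that the tissues are alike. The smallest p possible is 0.00794 for 5 samples against 5 and 0.0476 for 5 against 2. Testis, first for cfa-miR-199, was eighth for cfa-miR-214, and duodenum, twelfth for cfa-miR-199, was the third for cfa-miR-214.

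Each tissue was then compared with the mean of the other 15 by edgeR's quasi-likelihood test, with p-values adjusted by the Benjamini-Hochberg method over the 480 miRNAs tested. cfa-miR-199 was higher in 5 tissues and lower in 4, and cfa-miR-214 was higher in 6 and lower in 4. Both passed in the same direction in 8 tissues, 4 higher (liver, skeletal muscle, sciatic nerve and jejunum) and 4 lower (brain, plasma, pancreas and bone marrow). In 3 tissues a single one of them passed, in 5 neither did, and in none did they pass in opposite directions. Calls were common over all miRNAs tested. From 16.5% (bone marrow) to 45.2% (brain) were higher in a tissue, and from 3.75% (duodenum) to 28.1% (brain) were lower. How often other pairs of miRNAs share calls was not tested. By the exact rank-sum test used for tissue enrichment, both members passed only in brain and plasma, as lower.

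**Figure D2:**
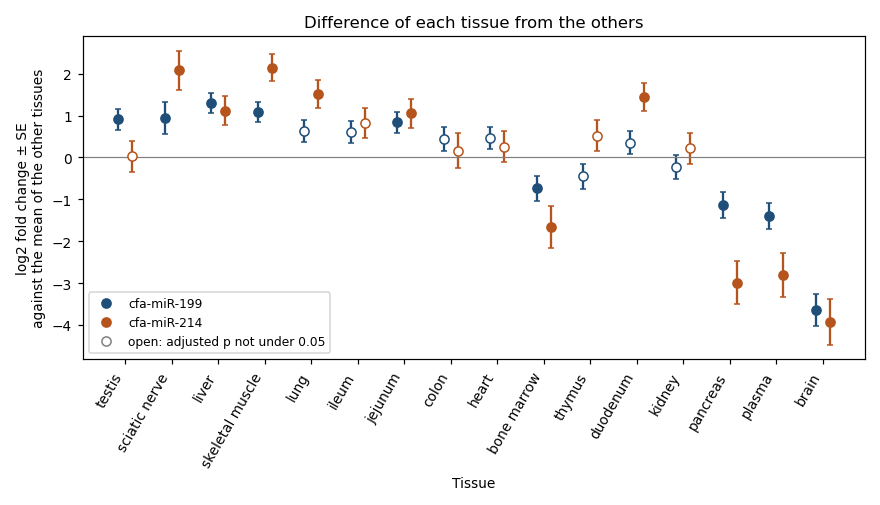
Log2 fold change ± SE of each tissue against the mean of the other tissues from the edgeR fit, for cfa-miR-199 (blue) and cfa-miR-214 (orange), with open symbols where the adjusted p was not under 0.05. Brain has the lowest value of both, -3.64 and -3.93.

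Sciatic nerve, a tissue with abundant connective sheaths, had cfa-miR-214 at 386 and 347 RPM and cfa-miR-199 at 4716 and 4972 RPM. Both libraries were above every brain library. Against the other tissues the log2 fold change was 2.08 ± 0.47 (SE), adjusted p = 1.98e-04 for cfa-miR-214 and 0.94 ± 0.39 (SE), adjusted p = 0.0448 for cfa-miR-199, where 24.8% of tested miRNAs were higher in nerve. The cfa-miR-199 call was lost without either library, with adjusted p = 0.189 and 0.136, and without the expression filter or with solid tissues alone (adjusted p = 0.0893 and 0.202).

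Brain gave the opposite picture. Its 5 libraries had 609.5, 809, 282, 381 and 123 RPM of cfa-miR-199 and 12.7, 23.3, 3.93, 21.01 and 4.34 RPM of cfa-miR-214. The log2 fold change was -3.64 ± 0.38 (SE), adjusted p = 1.63e-13 for cfa-miR-199 and -3.93 ± 0.54 (SE), adjusted p = 1.52e-09 for cfa-miR-214, where 28.1% of tested miRNAs were lower in brain. Scaling by total reads instead of TMM moved the median of all miRNAs in this comparison by 1.12 on the log2 scale, and both calls remained. Within the nervous system, sciatic nerve exceeded brain 19.6-fold for cfa-miR-199 (log2 4.29 ± 0.48 (SE), adjusted p = 3.82e-11) and 49.8-fold for cfa-miR-214 (log2 5.64 ± 0.69 (SE), adjusted p = 6.81e-10) in the edgeR fit, in which 17.9% of miRNAs were higher in nerve. The size of these folds depends on the scaling. Total reads moved the median of all miRNAs in this comparison by -0.76 on the log2 scale, and RLE size factors by -0.67.

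Skeletal muscle was the most variable tissue for both, with 27.4-fold and 90.9-fold between its lowest and highest library. In replicates 1 to 5 cfa-miR-199 stood at 3899.6, 659, 6022, 7108 and 259.7 RPM and cfa-miR-214 at 161, 9.38, 320.1, 853 and 38.0 RPM, so replicates 1, 3 and 4 were high and replicates 2 and 5 low for both. The log2 fold change against the other tissues was 1.09 ± 0.25 (SE), adjusted p = 2.56e-04 for cfa-miR-199 and 2.15 ± 0.32 (SE), adjusted p = 6.04e-08 for cfa-miR-214, where 26.5% of tested miRNAs were higher. The SE of this fit rests on a spread shared by all tissues, not on the wide spread of muscle alone. By the exact rank-sum test used for tissue enrichment, neither member passed in muscle (adjusted p = 0.729 for cfa-miR-199 and 0.496 for cfa-miR-214). Replicate 4, which held the highest level of both, had a summed level of striated muscle miRNAs (12 entries, among them miR-1, miR-133a and miR-206) of 735 RPM, against 39240 to 116591 RPM in the other 4 libraries. Without the libraries that stand apart the log2 fold changes were 0.87 and 1.62 and both still passed, whereas without replicate 3 cfa-miR-199 no longer passed (adjusted p = 0.112).

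Heart, the other striated muscle, had 2957, 1501, 4803, 972 and 2468 RPM of cfa-miR-199 and 71.6, 54.7, 103, 89.7 and 58.8 RPM of cfa-miR-214. Neither passed against the other tissues, where 39.2% of miRNAs passed in either direction. Against skeletal muscle, cfa-miR-214 was lower in heart (log2 -1.77 ± 0.54 (SE), adjusted p = 0.0191) in a comparison in which 6.46% of miRNAs were lower, while cfa-miR-199 was at log2 -0.58 ± 0.38 (SE), adjusted p = 0.342. The cfa-miR-214 call was lost without the libraries that stand apart (log2 -1.09, adjusted p = 0.124) and without heart replicate 1, 2 or 5 or skeletal muscle replicate 3 or 4 (adjusted p from 0.0508 to 0.184).

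Liver had 4535, 4242, 5295, 3223 and 5635 RPM of cfa-miR-199 and 139, 84.8, 142, 169.6 and 213 RPM of cfa-miR-214. Every liver library was above every brain, plasma and pancreas library for both miRNAs. The log2 fold changes were 1.30 ± 0.24 (SE), adjusted p = 1.03e-05 for cfa-miR-199, its highest over tissues in this fit, and 1.12 ± 0.35 (SE), adjusted p = 0.00752 for cfa-miR-214, with 23.3% of tested miRNAs higher in liver. With RLE size factors the cfa-miR-214 value fell to 0.65 and did not pass (adjusted p = 0.190).

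Among the intestinal segments, jejunum had 3539, 3094, 3160.4, 5805 and 2731 RPM of cfa-miR-199 and 154, 152, 113, 251 and 88.4 RPM of cfa-miR-214, with replicate 4 highest for both. Both passed as higher (log2 0.84 ± 0.25 (SE), adjusted p = 0.00606 for cfa-miR-199 and 1.06 ± 0.35 (SE), adjusted p = 0.0105 for cfa-miR-214), where 27.3% of miRNAs did. In duodenum only cfa-miR-214 passed, at 192, 167, 105, 149 and 172 RPM (log2 1.44 ± 0.34 (SE), adjusted p = 5.36e-04, with 21% of miRNAs higher), while cfa-miR-199 at 5258, 2904, 1420.0, 1194 and 1536 RPM did not (log2 0.35 ± 0.27 (SE), adjusted p = 0.369). Duodenum replicates 3 and 4 had summed epithelial miRNAs of 27308.4 and 6262.6 RPM against 92806.3 to 544000 RPM in the other 3, and without the libraries that stand apart the cfa-miR-214 value was 1.61 and still passed, while cfa-miR-199 at 0.62 did not (adjusted p = 0.164). In ileum and colon neither passed, where 27.7% and 25% of miRNAs passed in either direction. Without those libraries both passed in ileum, at log2 0.68 for cfa-miR-199 and 1.09 for cfa-miR-214. Colon against ileum was at log2 -0.16 ± 0.40 (SE), adjusted p = 0.998 for cfa-miR-199 and -0.62 ± 0.56 (SE), adjusted p = 0.833 for cfa-miR-214, in a comparison in which 0.208% of miRNAs passed.

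In lung cfa-miR-214 passed as higher, and in testis cfa-miR-199 did. Lung had 142, 252, 168, 249 and 372 RPM of cfa-miR-214 (log2 1.52 ± 0.33 (SE), adjusted p = 1.68e-04, with 20.6% of miRNAs higher) and 3847, 3791, 5181, 3084 and 3381 RPM of cfa-miR-199 (log2 0.63 ± 0.26 (SE), adjusted p = 0.0597). The cfa-miR-199 value passed with total reads, without the expression filter, in solid tissues alone, without the libraries that stand apart and without lung replicate 3 or 5, and not with RLE size factors or DESeq2. Testis had 6172, 5612, 2969.8, 4340.0 and 6268 RPM of cfa-miR-199 (log2 0.91 ± 0.25 (SE), adjusted p = 0.00185, with 34% of miRNAs higher) and 106, 106, 61.7, 105 and 139 RPM of cfa-miR-214 (log2 0.02 ± 0.37 (SE), adjusted p = 1.000). Testis replicate 3, the lowest for both, had 0.49 RPM of cfa-miR-202, a miRNA of the gonads, against 241 to 5345.34 RPM in the other 4 testis libraries. Without the libraries that stand apart, testis replicate 3 among them, cfa-miR-199 was at log2 1.00 (adjusted p = 0.00168) and cfa-miR-214 at 0.29 (adjusted p = 0.565). A difference between the members was not shown in either tissue, since the ratio of cfa-miR-199 to cfa-miR-214 within a library did not pass in lung (adjusted p = 0.185) or testis (adjusted p = 0.226, both by the exact rank-sum test).

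Pancreas and plasma were low for both. Pancreas had 739, 723, 658, 1726 and 755 RPM of cfa-miR-199 and 4.02, 8.82, 5.77, 27.4 and 4.44 RPM of cfa-miR-214, the latter from 9, 14, 14, 40 and 3 reads. The log2 fold changes were -1.13 ± 0.31 (SE), adjusted p = 0.00196 for cfa-miR-199 and -3.00 ± 0.51 (SE), adjusted p = 1.75e-06 for cfa-miR-214, where 19.2% of miRNAs were lower. Plasma had 273, 281, 539, 1039.8 and 458 RPM of cfa-miR-199 and 3.64, 3.40, 6.49, 16.0 and 6.91 RPM of cfa-miR-214, the latter from 1, 6, 9, 25 and 10 reads. Its log2 fold changes were -1.40 ± 0.32 (SE), adjusted p = 1.10e-04 for cfa-miR-199 and -2.80 ± 0.53 (SE), adjusted p = 4.94e-06 for cfa-miR-214, where 24.8% were lower.

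In bone marrow, a blood-forming tissue, both members passed as lower. It had 1436, 2029, 1465, 1894 and 1927 RPM of cfa-miR-199 and 18.5, 62.8, 10.8, 26.4 and 41.4 RPM of cfa-miR-214, the latter from 3, 15, 2, 5 and 9 reads. The log2 fold changes were -0.73 ± 0.30 (SE), adjusted p = 0.0421 for cfa-miR-199 and -1.66 ± 0.50 (SE), adjusted p = 0.00437 for cfa-miR-214, where 24.6% of miRNAs were lower. The cfa-miR-199 call was lost with RLE size factors, DESeq2, total reads, no expression filter or without the libraries that stand apart (adjusted p from 0.0500004 to 0.573). Both calls were lost when replicate 1, 3, 4 or 5 was left out (adjusted p from 0.657 to 1.000 for cfa-miR-199 and from 0.0583 to 0.139 for cfa-miR-214). Plasma and bone marrow were at log2 -0.63 ± 0.38 (SE), adjusted p = 0.201 for cfa-miR-199 and -1.07 ± 0.63 (SE), adjusted p = 0.186 for cfa-miR-214, where 43.1% of miRNAs passed in either direction. Both passed with total reads (log2 -1.75 and -2.08) and without bone marrow replicate 1, 3 or 4 or plasma replicate 4.

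Thymus had 23.8, 133, 103, 17.0 and 250.4 RPM of cfa-miR-214 in replicates 1 to 5 and 1810.5, 2097, 1648, 722 and 1804 RPM of cfa-miR-199. Replicates 1 and 4, the lowest for cfa-miR-214, had cfa-miR-181a, a miRNA of developing thymocytes, at 426312 and 500018 RPM, while replicates 2, 3 and 5 had 41990.7 to 53348.3 RPM. The part of this difference between libraries in the result was not tested. Neither cfa-miR-199 (log2 -0.45 ± 0.29 (SE), adjusted p = 0.256) nor cfa-miR-214 (log2 0.52 ± 0.37 (SE), adjusted p = 0.317) passed against the other tissues, where 26.5% of miRNAs passed in either direction. cfa-miR-214 was higher than in bone marrow (log2 2.05 ± 0.59 (SE), adjusted p = 0.00393, with 27.5% of miRNAs higher), and cfa-miR-199 was at log2 0.26 ± 0.38 (SE), adjusted p = 0.664. Without the libraries that stand apart, which leaves thymus replicates 1 and 4, cfa-miR-214 turned lower than in the other tissues (log2 -2.15, adjusted p = 0.00731) and was at log2 -0.66 against bone marrow (adjusted p = 0.515). In the same fit cfa-miR-199 was at log2 -1.14 against the other tissues (adjusted p = 0.0734) and at -0.43 against bone marrow (adjusted p = 0.589). The cfa-miR-214 call against bone marrow was also lost without thymus replicate 5 or bone marrow replicate 3 (adjusted p = 0.0515 and 0.0518). Kidney completed the set, with 1295, 1884, 754, 1359 and 774 RPM of cfa-miR-199 and 24.8, 48.6, 59.7, 65.6 and 64.8 RPM of cfa-miR-214, and neither passed where 34.4% of miRNAs did.

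No tissue met the criteria of tissue enrichment (TE) for either miRNA. TE required a mean above 5 times that of the remaining samples, a tissue median above 100 RPM and, by the exact rank-sum test (two-sided, adjusted within a tissue), a p under 0.05, and 25.1% of the 650 miRNAs met it in at least 1 tissue. The fold and p thresholds are the study's, and the median filter was added here. The study reports fewer TE miRNAs, so this share is not its own. The highest ratio of means was 3.43 for cfa-miR-214 in sciatic nerve (adjusted p = 0.0979) and 2.07 for cfa-miR-199 in testis (adjusted p = 0.0177).

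The ratio of both members within a library is free of scaling between libraries. The median library had 30.8 reads of cfa-miR-199 for each read of cfa-miR-214, with 0.5 reads added to each count, and libraries ranged from 6.60 to 174. By the same exact rank-sum test over all samples, with p-values adjusted over the 16 tissues, the ratio was higher in pancreas, at 174, 79.2, 110.03, 62.1 and 146 (adjusted p = 2.60e-04), and in plasma, at 50.3, 76.4, 78.8, 63.9 and 63.1 (adjusted p = 0.0204). It was lower in duodenum, at 27.2, 17.4, 13.4, 7.98 and 8.88 (adjusted p = 0.0460). Bone marrow, at 66.7, 31.3, 109, 65.2 and 44.2, did not pass (adjusted p = 0.111), nor did the other 12 tissues. Pancreas was the 1 call left when libraries with under 10 reads were left out. The duodenum call was lost without the libraries that stand apart (adjusted p = 0.174) and without replicate 2, 3, 4 or 5, and the plasma call without replicate 2 or 3.

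**Figure D3:**
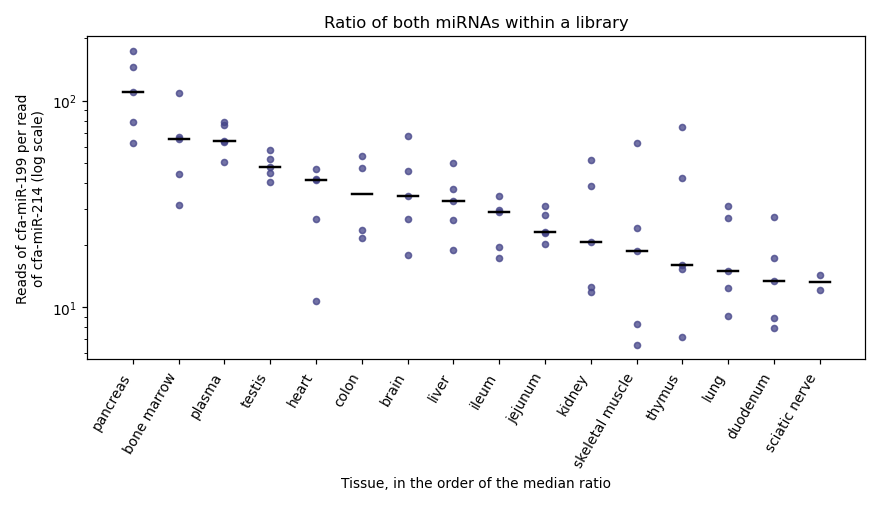
Reads of cfa-miR-199 per read of cfa-miR-214 in each library (points, log scale) with tissue medians (bars), in descending order. Pancreas is highest at a median of 110.03 and sciatic nerve lowest at 13.2.

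The 5p products tell miR-199a from miR-199b, which the shared 3p entry cannot. hsa-miR-199a-5p comes from both miR-199a hairpins, so the one beside MIR214 in DNM3 could not be told from the one in DNM2. It was less abundant than cfa-miR-199, with a median of 10.4 reads of cfa-miR-199 for each of its reads. The ratio of cfa-miR-199 to hsa-miR-199a-5p passed as higher in plasma (16.8, adjusted p = 5.02e-05) and pancreas (13.2, adjusted p = 0.0433, by the exact rank-sum test). It passed as lower in duodenum (5.62, adjusted p = 4.41e-04) and jejunum (7.05, adjusted p = 0.00308). The pancreas call was lost whichever replicate was left out.

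The ratio of cfa-miR-199 to hsa-miR-199b-5p passed in 5 tissues. Liver had the highest, with a median of 439 against 14.02 in all other samples (adjusted p = 1.73e-06 by the exact rank-sum test). It passed as higher also in bone marrow (median 51.1, adjusted p = 0.0112) and kidney (53.2, adjusted p = 0.0298), and as lower in pancreas (8.67, adjusted p = 5.44e-04) and skeletal muscle (8.33, adjusted p = 6.50e-04). The kidney call was lost without replicate 1, 2 or 5. hsa-miR-199b-5p had 3.59, 12.3, 13.0, 6.68 and 6.18 RPM in the 5 liver libraries, from 9, 32, 8, 5 and 8 reads, where hsa-miR-199a-5p had 396, 388, 397, 311 and 469 RPM. In the edgeR fit hsa-miR-199b-5p in liver was at log2 -3.64 ± 0.44 (SE), adjusted p = 1.36e-10 against the other tissues, while hsa-miR-199a-5p was at log2 1.08 ± 0.26 (SE), adjusted p = 6.54e-04. The ratio of hsa-miR-199a-5p to hsa-miR-199b-5p, a comparison added after the values were seen, was 104, 31.0, 28.8, 42.5 and 71.5 in liver against a median of 1.42 in all other samples (adjusted p = 1.73e-06). It passed as higher also in bone marrow (median 6.47) and kidney (6.50), and as lower in pancreas (0.603, adjusted p = 5.20e-05) and skeletal muscle (0.974). The bone marrow libraries had 3, 9, 5, 7 and 6 reads of hsa-miR-199b-5p, so the bone marrow calls of both ratios rest on few reads. Skeletal muscle replicate 5 had 4 reads of hsa-miR-199a-5p and 10 of hsa-miR-199b-5p. The bone marrow call was lost without replicate 4, the kidney call without replicate 1, 2, 3 or 5 and the skeletal muscle call without any 1 replicate or without the libraries that stand apart (adjusted p = 0.0594).

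**Figure D4:**
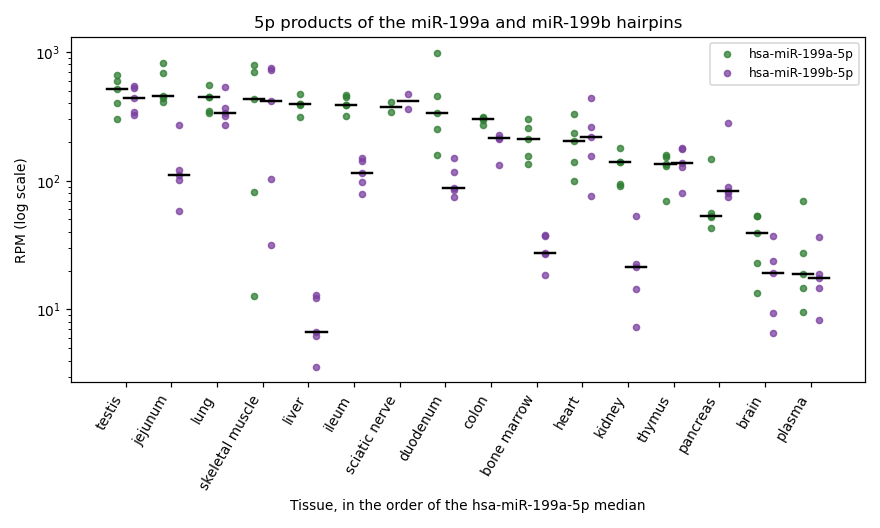
RPM on a log scale of hsa-miR-199a-5p (green) and hsa-miR-199b-5p (purple) in each library, with tissue medians (bars). In liver the medians are 396 and 6.68 RPM, and in pancreas 53.3 and 83.2 RPM. hsa-miR-199b-5p also has the higher median in sciatic nerve, heart and thymus, by 416 to 373, 217 to 204 and 138 to 134 RPM.

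In skeletal muscle hsa-miR-199b-5p was at log2 2.52 ± 0.25 (SE), adjusted p = 6.77e-14 against the other tissues, its highest value over tissues. It was also higher in sciatic nerve (log2 1.93), testis (1.92), lung (1.75), heart (1.504) and colon (1.14), and lower in brain (-3.69), bone marrow (-2.25), plasma (-1.76) and kidney (-1.41), all with an adjusted p of at most 0.00356 by edgeR. hsa-miR-214-5p was scarce, with tissue medians from 20.2 RPM in sciatic nerve to 1.13 RPM in plasma, and it was not used in ratios. Over the 16 tissue medians it followed cfa-miR-199 and cfa-miR-214 with a Spearman correlation of 0.93 and 0.88, as a description over points that share libraries.

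Over the same 16 medians cfa-miR-199 and cfa-miR-214 correlated at 0.73 (Spearman). hsa-miR-199a-5p was above this with both, at 0.87 and 0.77, and hsa-miR-199b-5p was at 0.65 and 0.54. Apart from these products of their own hairpins, 262 miRNAs had a tissue median above 100 RPM in at least 1 tissue, and none correlated as high with either member. Among the 262, the first for cfa-miR-199 were cfa-miR-122 (0.63), a liver miRNA, hsa-miR-27b-5p (0.61), rno-miR-193b-3p (0.60), cfa-miR-8831 and cfa-miR-8908c (both 0.58). For cfa-miR-214 they were cfa-miR-23b (0.71), rno-miR-193b-3p (0.69), cfa-let-7b (0.67), cfa-miR-145 (0.66), a smooth muscle miRNA, and cfa-miR-23a (0.61). Of those named for cfa-miR-199, cfa-miR-122, cfa-miR-8831 and cfa-miR-8908c had a median of 0 RPM in bone marrow. Outside liver the summed miR-122 entries had medians of at most 59.9 RPM, in sciatic nerve, so the ranks of cfa-miR-122 rest largely on few reads. Correlations at this number of points are a description, and several of these ranks moved with other scaling.

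Within tissues the members also moved together. After the tissue mean of log2(RPM + 1) was removed from each library, cfa-miR-199 and cfa-miR-214 correlated at 0.67 (Pearson) and 0.57 (Spearman) over 76 libraries. The median over the 262 other miRNAs was 0.26 with cfa-miR-199 and 0.15 with cfa-miR-214, and 5 and 4 of them were above the value between the members. Without skeletal muscle the Pearson value was 0.53. The libraries share depth and scaling, so these are descriptions.

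**Figure D5:**
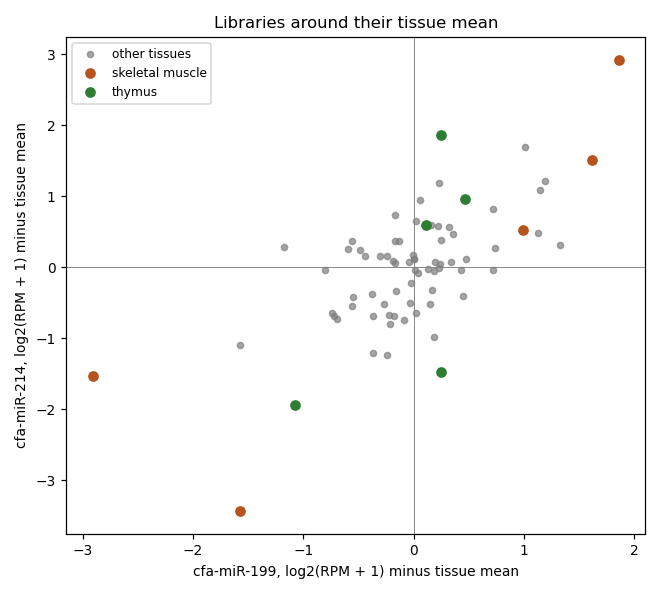
Each library's log2(RPM + 1) of cfa-miR-214 against that of cfa-miR-199, both minus the tissue mean, with skeletal muscle in orange and thymus in green. Skeletal muscle replicate 4 lies at 1.86 and 2.92, and replicate 2 at -1.57 and -3.44.

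A list of miRNAs associated with mesenchymal cells and fibroblasts (12 names, 20 entries, among them miR-143, miR-145, miR-21 and the miR-29 family) served as a comparison. The list is not specific to these cells, and the study names cfa-miR-29a as ubiquitous over its tissues. Entries of the list past the edgeR threshold are given by tissue from the fit with all libraries. Each count stands with the share of all 480 tested miRNAs that passed in that direction. Over all tested miRNAs more were higher than lower in every tissue but bone marrow, so direction alone does not set the list apart. More of the list was lower than higher in brain, plasma and bone marrow, where both members were lower. In brain 12 entries were lower (28.1%) and 3 higher (45.2%) of 20, with a median log2 fold change of -1.59 against 0.13 over all miRNAs tested. In plasma 9 entries were lower (24.8%) and 2 higher (27.9%), and in bone marrow 10 entries were lower (24.6%) and 2 higher (16.5%). The list median was -1.11 in plasma and -1.45 in bone marrow, against -0.59 and -0.97 over all miRNAs tested. Unlike in brain, the median over all miRNAs was thus also negative in these tissues. Pancreas, the other tissue where both members were lower, was even, as 7 entries were lower (19.2%) and 7 higher (21.2%). Where a member was higher, more of the list was higher than lower in 6 tissues, as over all tested miRNAs, and sciatic nerve was the exception. In duodenum 9 entries were higher (21%) and 1 lower (3.75%), in testis 8 entries were higher (34%) and 1 lower (16%), and in jejunum 10 entries were higher (27.3%) and 5 lower (13.1%). In skeletal muscle 8 entries were higher (26.5%) and 4 lower (16.5%), in liver 7 entries were higher (23.3%) and 3 lower (12.5%), and in lung 4 entries were higher (20.6%) and 3 lower (8.75%). The higher entries in lung were near the share over all miRNAs. In sciatic nerve, with the highest median of cfa-miR-214, 4 entries were higher (24.8%) and 5 lower (14.4%). Of the tissues where neither member passed, thymus alone had fewer entries higher than lower. In heart 12 entries were higher (21.9%) and 4 lower (17.3%), in kidney 8 entries were higher (24.2%) and 0 lower (10.2%), and in colon 7 entries were higher (18.5%) and 1 lower (6.46%). In ileum 8 entries were higher (19%) and 3 lower (8.75%), and in thymus 3 entries were higher (21.2%) and 5 lower (5.21%). The summed level of the list correlated over the 16 tissue medians at 0.37 with cfa-miR-199 and 0.28 with cfa-miR-214 (Spearman). Pearson values on the log2 scale were 0.72 with both. Single entries of the list ranged by Spearman from -0.25 (cfa-miR-29c) to 0.53 (hsa-miR-143-5p) with cfa-miR-199. With cfa-miR-214 they ranged from -0.52 (cfa-miR-29c) to 0.66 (cfa-miR-145). By Spearman, sums of miR-122 were at 0.59 and 0.45, of striated muscle miRNAs at 0.34 and 0.49 and of miR-126 at 0.24 and 0.39. Epithelial, blood, neural and acinar lists were at most 0.04. The sum follows its most abundant entries. In kidney cfa-miR-10b had a median of 445638 RPM, where the sum was at 514341 RPM.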

How the data were processed

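Small RNA libraries were analysed from the deposited table of counts. For these counts, the authors trimmed the adaptors, mapped perfectly matching reads to the dog genome (CanFam3.1) with OSA, dropped reads mapping to many places and tallied those over known or putative miRNA loci of dog, rat or human annotation with bedtools. The authors' total is the sum of reads on miRNAs per sample, from 157871 to 7896424. RPM was computed here as the deposited count divided by that total, and an unlisted miRNA was set to 0.

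Groups came from the tissue labels. In the table, 1 sample name matched no labelled sample and was left out, and 1 labelled colon sample was not analysed here. Same-tissue libraries (147 pairs) all differed beyond sampling noise. Counts were tested with edgeR 4.0.16 (quasi-likelihood, TMM, filterByExpr, all tissues in 1 fit, each tissue against the mean of the others and 5 pairs), adjusted over 480 miRNAs. DESeq2 1.42.0, other scalings and left-out samples were alternatives. Scripts were tested on simulated data. The named miRNAs were the members, the other products of their hairpins, the 5 most correlated miRNAs of each and list entries beside a result. The members, lists and tests were chosen with earlier results of these data known.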

Additional observations from a re-analysis of the deposited data

Results flagged for a closer look

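Of the 30 groups of 4 or 5 libraries examined for a value far from the others by Dixon's criterion (15 for each miRNA), 4 held one. The criterion flags about 1 in 20 by chance among normal values. It was applied to RPM without a log scale, so no excess over chance can be read from the 4. cfa-miR-199 in jejunum replicate 4 was at 5805 RPM and in pancreas replicate 4 at 1726 RPM. cfa-miR-214 in pancreas replicate 4 was at 27.4 RPM and in plasma replicate 4 at 16.0 RPM. Pancreas replicate 4 was thus apart for both, and it had hsa-miR-199b-5p at 279 RPM against 75.0 to 88.9 RPM in the other 4 pancreas libraries and the mesenchymal and fibroblast list at a sum of 152660 RPM against 79373.8 to 98382.5 RPM. The part of that list in these values was not tested. All 4 values were the highest of their group.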

How the results depend on the processing

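No paired analysis was possible because the labels carry no dog number and replicates were numbered in accession order. Values are log2 differences unless they are counts or correlations. With RLE size factors, miR-199 in bone marrow (-0.43), miR-214 in liver (0.65) lost the call, and miR-199 in thymus against bone marrow (-0.061), miR-214 in kidney (-0.069) changed sign. With total reads alone, miR-199 in bone marrow (-0.33) lost the call, and miR-199 in lung (0.88), miR-199 in plasma against bone marrow (-1.75), miR-214 in plasma against bone marrow (-2.08) gained a call, and miR-199 in thymus against bone marrow (-0.12), miR-214 in heart (-0.024), miR-214 in kidney (-0.57) changed sign. Without the expression filter, miR-199 in bone marrow (-0.31), miR-199 in sciatic nerve (0.87) lost the call, and miR-199 in lung (0.95), miR-199 in plasma against bone marrow (-1.08) gained a call, and miR-214 in kidney (-0.090), miR-214 in testis (-0.088) changed sign. With DESeq2, miR-199 in bone marrow (-0.43), miR-214 in liver (0.65) lost the call, and miR-199 in thymus against bone marrow (-0.062), miR-214 in kidney (-0.068) changed sign. Without the 7 libraries that stand apart, an alternative chosen after seeing the data, miR-199 in bone marrow (-0.69), miR-214 in heart against skeletal muscle (-1.09), ratio of miR-199 to miR-214, duodenum (-0.99) lost the call, and miR-199 in ileum (0.68), miR-199 in lung (0.67), miR-214 in ileum (1.09) gained a call, and miR-199 in thymus against bone marrow (-0.43), miR-214 in thymus (-2.15), miR-214 in thymus against bone marrow (-0.66), ratio of miR-199 to miR-214, liver (-0.0091), ratio of miR-199 to miR-214, thymus (0.84) changed sign. With solid tissues alone, miR-199 in lung (0.63) gained a call, and miR-199 in sciatic nerve (0.64), miR-214 in liver (0.66) lost the call, and count of tissues, miR-199 passed, lower (2), count of tissues, miR-214 passed, lower (2) moved, and miR-214 in colon (-0.060), miR-214 in heart (-0.096), miR-214 in kidney (-0.24), miR-214 in testis (-0.17) changed sign. With TMM-scaled values in place of RPM, miR-199 in testis over sciatic nerve (-0.053), miR-199 in sciatic nerve over liver (-0.32), miR-199 in bone marrow over thymus (-0.22), miR-214 in lung over duodenum (-0.014), miR-214 in skeletal muscle over jejunum (0.25), miR-214 in colon over heart (-0.072), miR-214 in brain over plasma (-0.90), miR-214 in plasma over pancreas (0.19) changed sign. With at least 10 reads of both, count of tissues, ratio of miR-199 to miR-214 (1) moved, and ratio of miR-199 to miR-214, duodenum (-1.08), ratio of miR-199 to miR-214, plasma (1.24) lost the call, and ratio of miR-199 to miR-214, ileum (0.10) changed sign. Without skeletal muscle, correlation of both members over samples after removing tissue means (0.53) moved. With 1 sample left out in turn, a call was lost or gained, a sign changed or a count moved for these results, given as lowest to highest value: miR-199 in bone marrow (-0.96 to -0.11), miR-199 in lung (0.63 to 0.91), miR-199 in sciatic nerve (0.99 to 1.04), miR-199 in skeletal muscle (0.56 to 1.45), miR-199 in colon against ileum (-0.24 to 0.027), miR-199 in plasma against bone marrow (-1.41 to -0.40), miR-199 in thymus against bone marrow (-0.20 to 0.49), miR-214 in bone marrow (-2.28 to -0.96), miR-214 in kidney (-0.11 to 0.44), miR-214 in testis (-0.17 to 3.74e-04), miR-214 in thymus (-0.070 to 0.82), miR-214 in heart against skeletal muscle (-2.09 to -1.18), miR-214 in plasma against bone marrow (-1.99 to -0.45), miR-214 in thymus against bone marrow (1.45 to 2.67), miR-199 in sciatic nerve over liver (-0.016 to 0.19), miR-214 in jejunum over liver (-0.21 to 0.16), miR-214 in liver over ileum (-0.11 to 0.24), miR-199 in colon over heart (-0.011 to 0.57), miR-214 in colon over heart (-0.12 to 0.28), miR-199 in testis over sciatic nerve (-0.075 to 0.19), miR-214 in duodenum over skeletal muscle (-0.40 to 1.19), miR-214 in skeletal muscle over jejunum (-1.08 to 0.51), miR-199 in bone marrow over thymus (-0.082 to 0.30), miR-214 in thymus over colon (-0.68 to 0.27), miR-199 in plasma over brain (-0.074 to 0.60), miR-199 in ileum over jejunum (-0.12 to 0.15), miR-214 in plasma over pancreas (-0.57 to 0.16), count of tissues, ratio of miR-199 to miR-214 (1 to 3), ratio of miR-199 to miR-214, brain (-0.014 to 0.37), ratio of miR-199 to miR-214, colon (-0.38 to 0.61), ratio of miR-199 to miR-214, duodenum (-1.58 to -1.09), ratio of miR-199 to miR-214, liver (-0.066 to 0.18), ratio of miR-199 to miR-214, plasma (1.13 to 1.27), ratio of miR-199 to miR-199a-5p, testis (-0.018 to 0.045), count of tissues, ratio of miR-199a-5p to miR-199b-5p (3 to 5). The cause of these changes was not tested. A sample left out of sciatic nerve leaves 1, which is then assumed to vary like the other tissues. Counts of TE tissues stayed at 0 under every alternative run, and neighbouring pairs past the threshold stayed at 0. A correlation was called moved where it changed by at least 0.1. A count of 3 reads equals 0.380 to 19.0 RPM, which limits the low values of cfa-miR-214.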
